A study of Capra hircus with 9 samples.

Results

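The B cell lineage genes described here are a fixed list of 9 gene names: the antigen receptor subunits CD79A and CD79B, the surface proteins MS4A1 and CD22, the transcription factor PAX5, the signalling proteins BLK and BANK1, and the 2 receptors of follicular and mature B cells, CR2 and FCER2. They are 9 of the 21665 genes in the table, and their 27 transcripts were summed per gene. The first 7 are called pan-B genes below, and CR2 and FCER2 the follicular genes. These names stand for the lists and not for cells found in the libraries. RNA was taken from submandibular glands of healthy female Lubo goats kept under one set of conditions, 3 goats at 1 month of age (group A), 3 at 12 months (group B) and 3 at 24 months (group C), with no treatment in any group. Each library is 1 goat, named A1 to A3, B1 to B3 and C1 to C3 as in the labels, and each holds RNA of a whole tissue piece rather than of sorted cells. Ages were compared at slaughter in different animals, so no goat was followed over time.

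B cells carry an antigen receptor, a membrane immunoglobulin that signals through the CD79A and CD79B chains. PAX5 holds a cell in the B lineage from its early stages and directs transcription of several of the other genes, and plasma cells, which secrete antibody, switch PAX5, MS4A1 and most surface markers off. Mature B cells gather in follicles of lymph nodes, tonsils and other lymphoid tissue, where CR2 is also made by follicular dendritic cells. A salivary gland holds mostly secretory epithelium with plasma cells in the stroma, while the thymus, a lymphoid organ that is large in young animals, holds mainly developing T cells and a small population of B cells.

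Total expected counts ranged from 11546808 to 17586065 in group A and from 18231894 to 24901065 in groups B and C, and levels are given as CPM, expected counts scaled to a common library size (1e+06) after TMM normalization. A level of 0.145 to 0.189 CPM corresponds to 3 counts, depending on the library. The library labelled A2 went against its tissue label: the mucin gene MUC19 was at 50.2 CPM there, against 23130 in A1, 16810 in A3 and 73120 to 152900 in the older libraries, and the water channel gene AQP5 was at 0.465 CPM against 217 in A1 and 127 in A3. FOXN1, the defining transcription factor of thymic epithelium, was at 79.2 CPM in A2, 15.7 in A1 and 5.52 in A3, and at most 0.103 in the older libraries. Each test of the 9 genes against group A is therefore given with and without the library labelled A2, as are the list medians and tests in the account of the other lists. In C3, 25.1% of the values above 0 were whole numbers, against 0.835% to 2.22% in the other 8 libraries. CD79A, CD79B, MS4A1, CD22, PAX5, BLK, BANK1, CR2 and FCER2 all had counts in each library of group A, and only MS4A1 and BLK had a library listed at 0.

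All 9 genes had a higher mean in group A than in group B or group C, and the 9 together came to 116, 390 and 324 CPM in A1, A2 and A3 against 17.5 to 44.2 in the 6 older libraries. With A2 included, MS4A1, CD22, PAX5, BANK1, BLK and CD79A fell in both older groups by the test across all genes. CD79B, CR2 and FCER2 did not pass it in either. Without A2, CR2 was called in both comparisons and CD79B from 1 to 12 months only. CD79A was then called in neither, and BLK from 1 to 12 months only. In bulk RNA, fewer B cells and less of these transcripts in each cell cannot be told apart. Lists of thymocyte, thymic epithelial, lymph node and myeloid genes also differed between group A and the older groups, with values given below, and their part in the differences of the B cell genes was not tested.

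**Figure D1:**
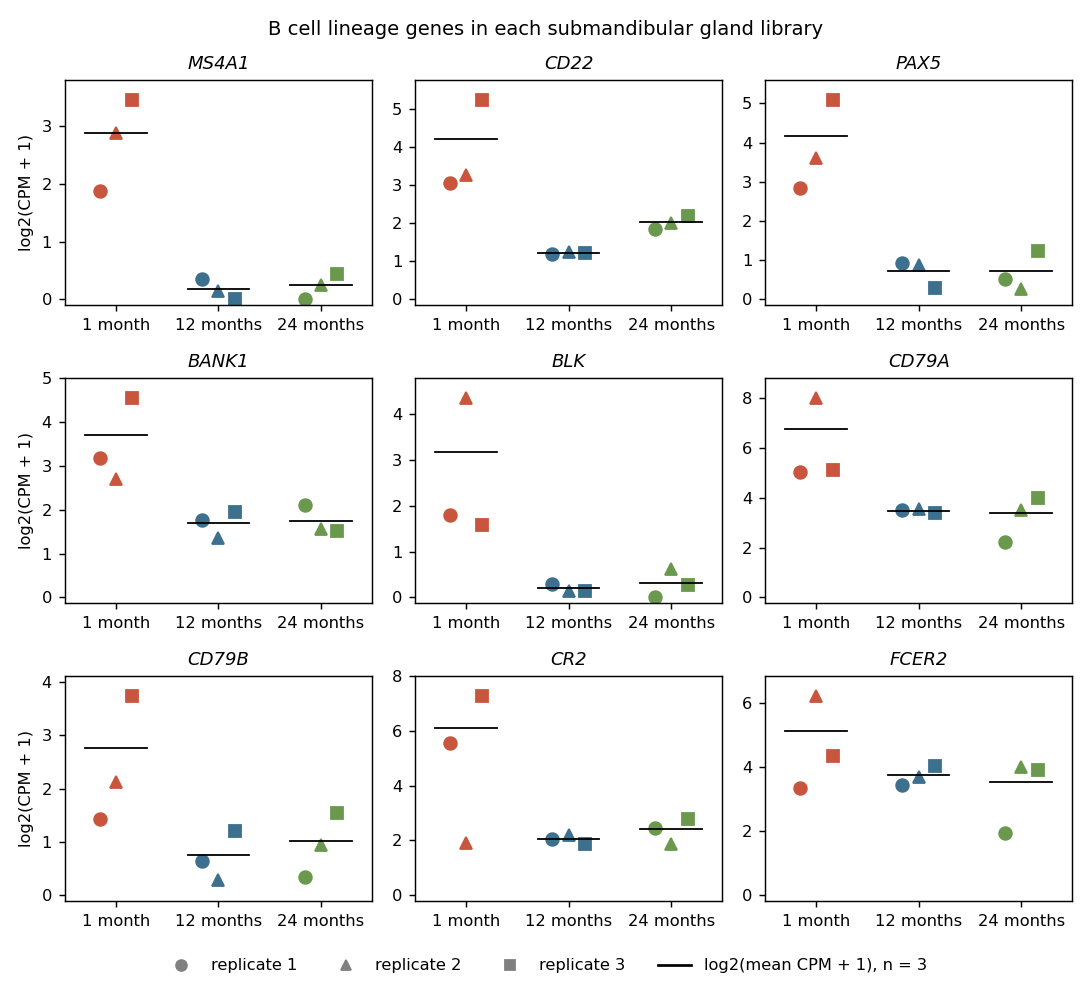
Level of each of the 9 genes as log2(CPM + 1) in the 9 libraries, by age (groups A, B and C from left to right); each point is 1 library, its shape gives the replicate number, the line is the log2 of the mean CPM plus 1 over 3 libraries, and each panel has its own vertical scale. BLK, CD79A and FCER2 peak in 1-month replicate 2 (A2), the other 6 genes in 1-month replicate 3 (A3), and CR2 in A2 (2.74 CPM) lies among the older libraries (2.62 to 5.96 CPM).

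CD79A (NCBI gene 102174687) encodes the alpha chain of the receptor signalling pair. It was at 32.1, 259 and 33.8 CPM in A1, A2 and A3, at 10.4, 10.7 and 9.42 CPM in B1, B2 and B3, and at 3.66, 10.4 and 14.8 CPM in C1, C2 and C3. A2 stood far above every other library, A1 and A3 were close to each other, and neither older group overlapped group A. The fitted log2 fold change was -3.42 ± 0.92 (SE) from 1 to 12 months (edgeR quasi-likelihood, adjusted p = 0.0454) and -3.42 ± 0.98 from 1 to 24 months (edgeR, adjusted p = 0.0454). Without the library labelled A2 it was -1.71 ± 0.15 (edgeR, adjusted p = 0.000807) and -1.67 ± 0.51 (edgeR, adjusted p = 0.0393), both past the p threshold but inside the log2 limit of 2 that a call needs. The mean of A1 and A3 was 3.24 times that of group B, where the mean of all 3 libraries was 10.6 times as high.

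CD79B (NCBI gene 102177093) encodes the partner chain. It was at 1.70, 3.36 and 12.4 CPM in A1 to A3, at 0.558, 0.220 and 1.29 CPM in B1 to B3, and at 0.273, 0.921 and 1.90 CPM in C1 to C3. Group B lay below group A in full, while C3 lay above A1. The log2 fold change was -2.995 ± 0.95 from 1 to 12 months (edgeR, adjusted p = 0.0700) and -2.35 ± 0.95 from 1 to 24 months (edgeR, adjusted p = 0.121), and without the library labelled A2 it was -3.35 (edgeR, adjusted p = 0.0372) and -2.66 (edgeR, adjusted p = 0.0620). The 2 chains of one complex thus had different orders in group A: CD79A was highest in A2 and CD79B in A3. Per count of CD79B there were 19.3, 77.4 and 2.74 counts of CD79A in A1, A2 and A3, against 7.38 to 48.5 in the older libraries.

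MS4A1 (NCBI gene 102172175) encodes CD20, a surface protein of B cells that plasma cells lack. It was at 2.70, 6.40 and 10.0 CPM in A1 to A3, from 43.0 to 160 expected counts. The older libraries held 5.21, 2.01 and 0.0 counts in B1 to B3 and 0.0, 3.51 and 7 in C1 to C3, or at most 0.359 CPM, so that some lay under 3 counts and no older library overlapped group A. The log2 fold change was -5.52 ± 1.01 from 1 to 12 months (edgeR, adjusted p = 0.0163) and -4.93 ± 1.05 from 1 to 24 months (edgeR, adjusted p = 0.0181). Of the 9 genes, MS4A1 moved least when the library labelled A2 was left out, to -5.57 (edgeR, adjusted p = 0.00810) and -4.94 (edgeR, adjusted p = 0.00960). The group B mean of 0.130 CPM lay below the level of 3 counts, so the fitted size rests on few counts and is no bound, and MS4A1 passed the filter on low counts through group A alone. A second gene described as CD20-like, LOC102174108, had no count in any of the 9 libraries.

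CD22 (NCBI gene 102185210) encodes a sialic acid binding lectin that dampens receptor signalling. It was at 7.29, 8.67 and 37.0 CPM in A1 to A3, at 1.28, 1.38 and 1.34 CPM in B1 to B3, and at 2.62, 3.01 and 3.59 CPM in C1 to C3. A3 stood above A1 and A2, and the 3 groups did not overlap, with group B lowest. The log2 fold change was -3.66 ± 0.71 from 1 to 12 months (edgeR, adjusted p = 0.0192) and -2.39 ± 0.68 from 1 to 24 months (edgeR, adjusted p = 0.0443), and -4.06 (edgeR, adjusted p = 0.00559) and -2.74 (edgeR, adjusted p = 0.0117) without the library labelled A2.

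PAX5 (NCBI gene 102182786), the B lineage transcription factor, was at 6.16, 11.2 and 33.1 CPM in A1 to A3, at 0.892, 0.825 and 0.215 CPM in B1 to B3, and at 0.436, 0.194 and 1.34 CPM in C1 to C3. The lowest library of group A lay above the highest older library, C3. The log2 fold change was -4.64 ± 0.84 from 1 to 12 months (edgeR, adjusted p = 0.0161) and -4.55 ± 0.92 from 1 to 24 months (edgeR, adjusted p = 0.0155), and -4.93 (edgeR, adjusted p = 0.00651) and -4.80 (edgeR, adjusted p = 0.00551) without the library labelled A2. A single transcript assembled by the authors and absent from RefSeq, TCONS_00027563, held 96.0% of the PAX5 counts over the 9 libraries, so this result depends on its assignment to PAX5.

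BLK (NCBI gene 102174117) encodes a kinase of the Src family that acts at the B cell receptor. It was at 2.45, 19.4 and 2.01 CPM in A1 to A3, and the older libraries held 2.01 to 3.72 expected counts in group B and 0.0, 10.5 and 4 in C1 to C3, at most 0.533 CPM. A2 was the high library, and every library of group A lay above every older one. The log2 fold change was -5.72 ± 1.21 from 1 to 12 months (edgeR, adjusted p = 0.0236) and -4.88 ± 1.35 from 1 to 24 months (edgeR, adjusted p = 0.0412). Without the library labelled A2 it was -3.87 (edgeR, adjusted p = 0.00428) and -3.01 (edgeR, adjusted p = 0.0667), so the call against group C was lost. Like MS4A1, BLK passed the filter through group A alone, and its group B mean of 0.147 CPM makes the fitted size no bound.

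BANK1 (NCBI gene 102176311) encodes a scaffold protein that links the receptor to calcium release. It was at 8.04, 5.47 and 22.4 CPM in A1 to A3, at 2.40, 1.54 and 2.85 CPM in B1 to B3, and at 3.27, 1.94 and 1.85 CPM in C1 to C3. The lowest library of group A was A2, and it still lay above the highest older library, C1. The log2 fold change was -2.34 ± 0.60 from 1 to 12 months (edgeR, adjusted p = 0.0402) and -2.23 ± 0.62 from 1 to 24 months (edgeR, adjusted p = 0.0419), and -2.76 (edgeR, adjusted p = 0.00743) and -2.60 (edgeR, adjusted p = 0.00892) without the library labelled A2.

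CR2 (NCBI gene 102186615) encodes the complement receptor CD21 of mature B cells and follicular dendritic cells. It was at 46.2, 2.74 and 154 CPM in A1 to A3, at 3.12, 3.58 and 2.64 CPM in B1 to B3, and at 4.42, 2.62 and 5.96 CPM in C1 to C3. A1 and A3 lay above every older library by a wide margin, whereas A2 lay within the range of both older groups, and the level in A3 was 56.3 times that in A2. The log2 fold change was -4.36 ± 1.23 from 1 to 12 months (edgeR, adjusted p = 0.0514) and -3.83 ± 1.14 from 1 to 24 months (edgeR, adjusted p = 0.0521), not called in either. Without the library labelled A2 it was -5.02 ± 0.53 (edgeR, adjusted p = 0.00153) and -4.43 ± 0.56 (edgeR, adjusted p = 0.00108), and CR2 then passed both thresholds against each older group.

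FCER2 (NCBI gene 102171507) encodes CD23, the low-affinity IgE receptor of mature follicular B cells. It was at 9.24, 74.1 and 19.3 CPM in A1 to A3, at 9.93, 12.0 and 15.3 CPM in B1 to B3, and at 2.84, 15.1 and 14.2 CPM in C1 to C3. A2 and A3 lay above every older library, A2 by far the most, and A1 lay below all of group B. The log2 fold change was -1.47 ± 0.76 from 1 to 12 months (edgeR, adjusted p = 0.200) and -1.59 ± 0.89 from 1 to 24 months (edgeR, adjusted p = 0.243), and -0.21 ± 0.36 (edgeR, adjusted p = 0.661) and -0.30 ± 0.65 (edgeR, adjusted p = 0.760) without the library labelled A2. Without A2 the mean of group A was 1.15 times that of group B and 1.33 times that of group C.

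A gene was called when its adjusted p lay below 0.05 and its fitted log2 fold change exceeded 2 in either direction. By this rule 6 of the 9 genes fell from 1 to 12 months, where 9.52% of the 14884 genes tested were called lower and 2.16% higher. From 1 to 24 months the same 6 genes fell, where 9.16% of 14954 genes were called lower and 4.25% higher. MS4A1 and BLK, which are among the 6, passed the filter on low counts through group A alone, so the counts of calls are a description. When the library labelled A2 was left out, 7 of the 9 were called lower at 12 months, against 10.4% of all genes, with CD79B and CR2 gained and CD79A lost. At 24 months 5 of the 9 were then called, against 9.73% of all genes, and they were MS4A1, CD22, PAX5, BANK1 and CR2. No B cell lineage gene was called higher in an older group. The median log2 fold change over the 9 genes was -3.66 from 1 to 12 months and -3.42 from 1 to 24 months, beside -0.02 and -0.01 over all genes tested. The comparisons with groups B and C share the libraries of group A and so are not independent of each other.

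**Figure D2:**
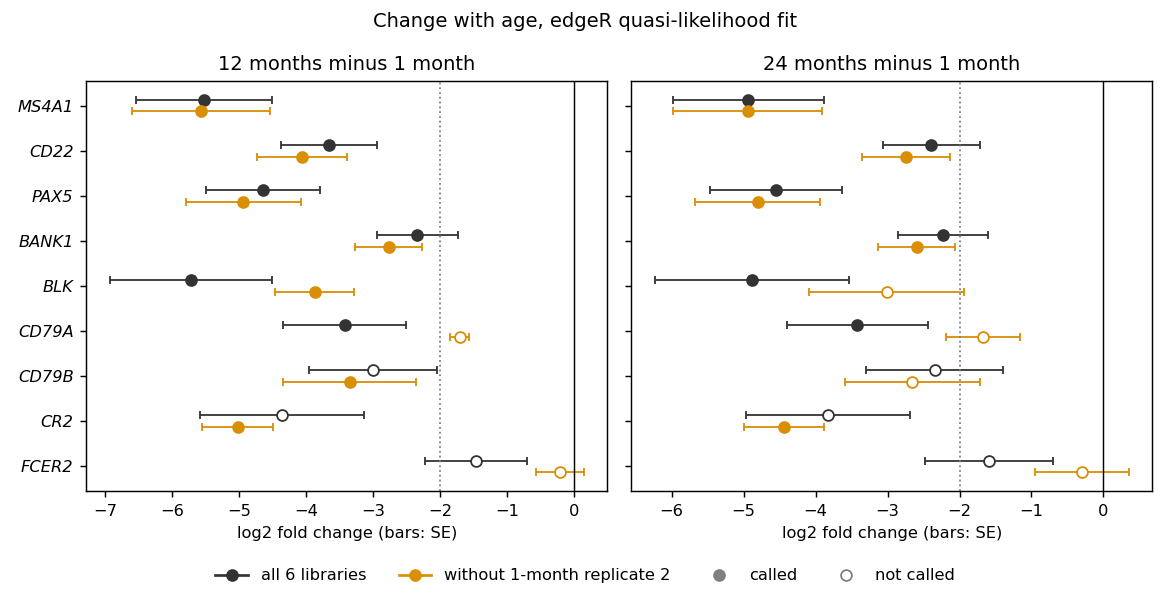
Fitted log2 fold change of each gene (horizontal axis, bars: SE) from 1 to 12 months on the left and from 1 to 24 months on the right, with all 6 libraries (dark) and without 1-month replicate 2, the library labelled A2 (orange); filled points are called and the dotted line marks the limit of -2. Leaving out A2 moved CD79A to -1.71 and -1.67 and CR2 to -5.02 and -4.43, and left MS4A1 at -5.57 and -4.94.

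The order of the libraries was counted as well. In 7 of the 9 genes every library of group B lay below every library of group A, which held for 26.5% of all genes tested, and the exceptions were CR2 and FCER2. In 6 of the 9 every library of group C lay below group A, against 23.2% of all genes, with CD79B as the further exception. Both counts include MS4A1 and BLK, which passed the filter on low counts through group A alone. Leaving out the library labelled A2 made these counts 8 of 9, against 34.1%, and 7 of 9, against 31.9%. Leaving out an older library removed calls across the whole table and not among these genes alone. Without B1, B2 or B3, 0 of the 9 genes were called from 1 to 12 months, where 0.0%, 0.411% and 0.709% of all genes were called lower. Without C1, C2 or C3, 1, 0 and 0 were called from 1 to 24 months, where 5.68%, 2.96% and 1.74% of all genes were. With all libraries it was 6 of the 9 and 9.16% of all genes, so the 9 lost a larger part of their calls. The fitted sizes moved less than the calls: CD22 was at -3.61, -3.67 and -3.66 and MS4A1 at -6.64, -5.41 and -4.94 without B1, B2 and B3. With the transcripts that are absent from RefSeq left out, 3 of the 9 genes (MS4A1, BLK and CD79A) were called from 1 to 12 months, against 8.71% of all genes, and 4 (with CD22) from 1 to 24 months, against 8.49%. PAX5 could not be tested there, and CD22 and BANK1, at -4.38 and -2.30 from 1 to 12 months, missed the p threshold (edgeR, adjusted p = 0.0654 and 0.0780).

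Groups B and C were compared to ask whether the 9 genes still differed between 12 and 24 months. MS4A1 and BLK were too low to be tested, and 0 of the other 7 were called by edgeR, where 0.0% of 14289 genes were called lower and 0.0% higher. DESeq2 and the edgeR exact test also called 0 of them. At an unadjusted p under 0.05 edgeR found 1 of the 7, and 1560 of the 14289 genes tested. The member among them was CD22, which was higher in each library of group C (2.62 to 3.59 CPM) than in each of group B (1.28 to 1.38 CPM). Its log2 fold change was 1.25 ± 0.43 (edgeR, unadjusted p = 0.0159, adjusted p = 0.429). How many of all genes were without overlap between groups B and C was not counted. The other 6 fold changes ran from -0.16 for FCER2 to 0.62 for CD79B, with SEs from 0.41 to 0.84, so that changes of this size in the older glands were not detectable with 3 libraries each. In group C, C1 had the lowest level of MS4A1, CD22, BLK, CD79A, CD79B and FCER2 and the highest level of BANK1. PAX5 and CR2 were lowest in C2.

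Within group A the 9 genes split by library. A group of 6 (MS4A1, CD22, PAX5, BANK1, CD79B and CR2) were highest in A3, and 3 (BLK, CD79A and FCER2) were highest in the library labelled A2. The level in A2 was 7.92, 8.05 and 8.02 times that in A1 for BLK, CD79A and FCER2, and 9.67, 7.65 and 3.85 times that in A3. Of the summed group A level, A2 held 81.3% for BLK, 79.7% for CD79A and 72.2% for FCER2, but 1.35% for CR2. The remaining 5 genes had between 15.2% (BANK1) and 33.5% (MS4A1) of their summed level in A2.

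The follicular genes CR2 and FCER2 did not move together. There were 4.99 counts of CR2 per count of FCER2 in A1 and 8.01 in A3, against 0.0371 in A2 and 0.172 to 1.55 in the older libraries. Summed, the 2 genes took 47.8% of the counts of the 9 genes in A1 (882 of 1844; exact binomial 95% interval 45.5% to 50.1%), 19.7% in A2 (1489 of 7555; 18.8% to 20.6%) and 53.5% in A3 (2761 of 5164; 52.1% to 54.8%), intervals that cover counting error only. The share was lowest in A2, below those of the older libraries, which ran from 41.6% to 54.1%, and in A2 CD79A alone took 66.3% of the counts of the 9 genes. The order depends on which genes enter: with FCER2 as the only follicular gene the shares were 13.3%, 19.1% and 11.3%, highest in A2, and the summed level of CR2 and FCER2 was 55.4, 76.85 and 173 CPM in A1, A2 and A3, lowest in A1. Counts were not divided by transcript length, so the share is compared between libraries and says nothing of one gene against another. Because the 3 libraries are replicates of one group, no test was made between them.

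**Figure D3:**
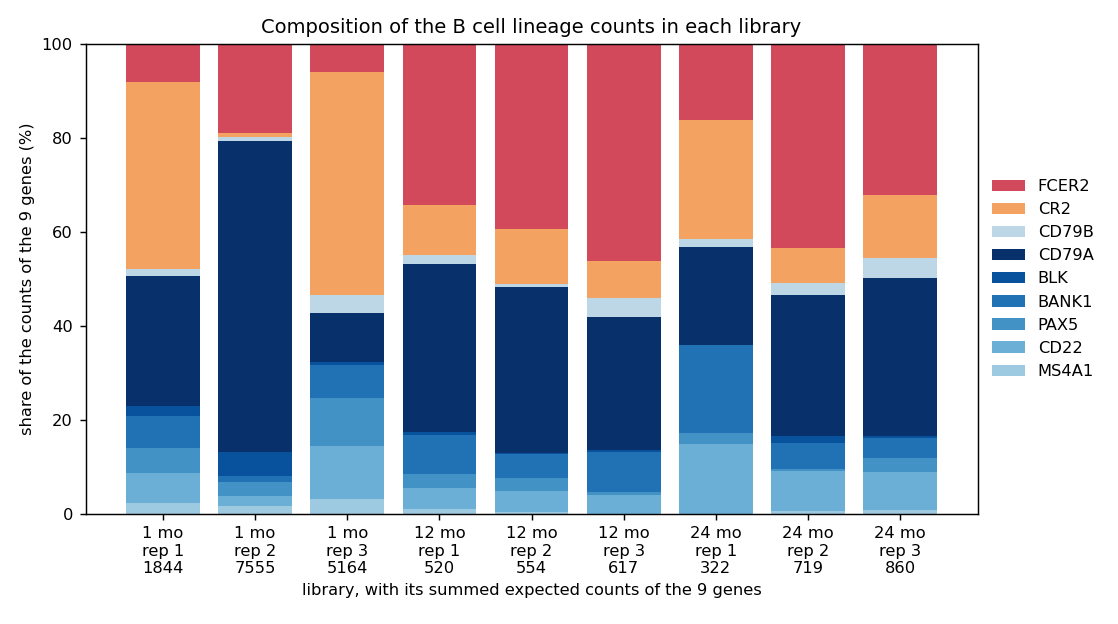
Share of each of the 9 genes in their summed expected counts (vertical axis, %) in each library, with the summed counts under each bar and the follicular genes CR2 and FCER2 in orange and red on top. CD79A took 66.3% in 1-month replicate 2 (A2) against 27.7% in A1 and 10.4% in A3, and CR2 took 0.705% in A2 against 39.9% and 47.5%.

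The make-up of the older libraries differed from that of A1 and A3. FCER2 took 34.2% to 46.2% of the counts of the 9 genes in B1 to B3 and 16.3% to 43.4% in C1 to C3, but 7.99% in A1 and 5.94% in A3. The share of CR2 ran from 7.95% to 11.8% in B1 to B3 and from 7.48% to 25.2% in C1 to C3. The 9 genes together gave 322 to 860 counts in an older library. Which cells held the FCER2 transcripts there was not tested.

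Markers of other cells were uneven over the same libraries. Of 12 thymocyte genes listed, 11 were in the table, and they summed to 1641, 7790 and 966 CPM in A1, A2 and A3, 12.1 to 21.2 at 12 months and 27.4 to 30.7 at 24 months, with none at 0 throughout a group. The 6 thymic epithelium genes summed to 268, 1098 and 102 CPM in A1 to A3 and 0.936 to 2.64 in the older libraries, where AIRE was at 0 in both groups and PSMB11 in group B. These 2 lists were thus highest in A2, as BLK, CD79A and FCER2 were. The 6 lymph node stroma genes summed to 54.2, 101 and 208 CPM in A1 to A3 and 20.9 to 45.7 in the older libraries, and the 7 myeloid genes found of 8 summed to 180, 241 and 590 CPM against 83.5 to 168, with MARCO at 0 in all older libraries. The sums of those 2 lists were highest in A3, as CR2, CD22, PAX5, BANK1, CD79B and MS4A1 were. Within the lymph node list CCL19 went the other way, at 5.28, 51.6 and 11.2 CPM in A1 to A3. PROX1 was at 13.6, 2.17 and 50.1 CPM, so the list did not move as one. The 8 salivary acinar and duct genes summed to 24650, 232 and 17820 CPM in A1 to A3 and 77920 to 157200 in the older libraries. The part of these cells in the B cell values was not tested.

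**Figure D4:**
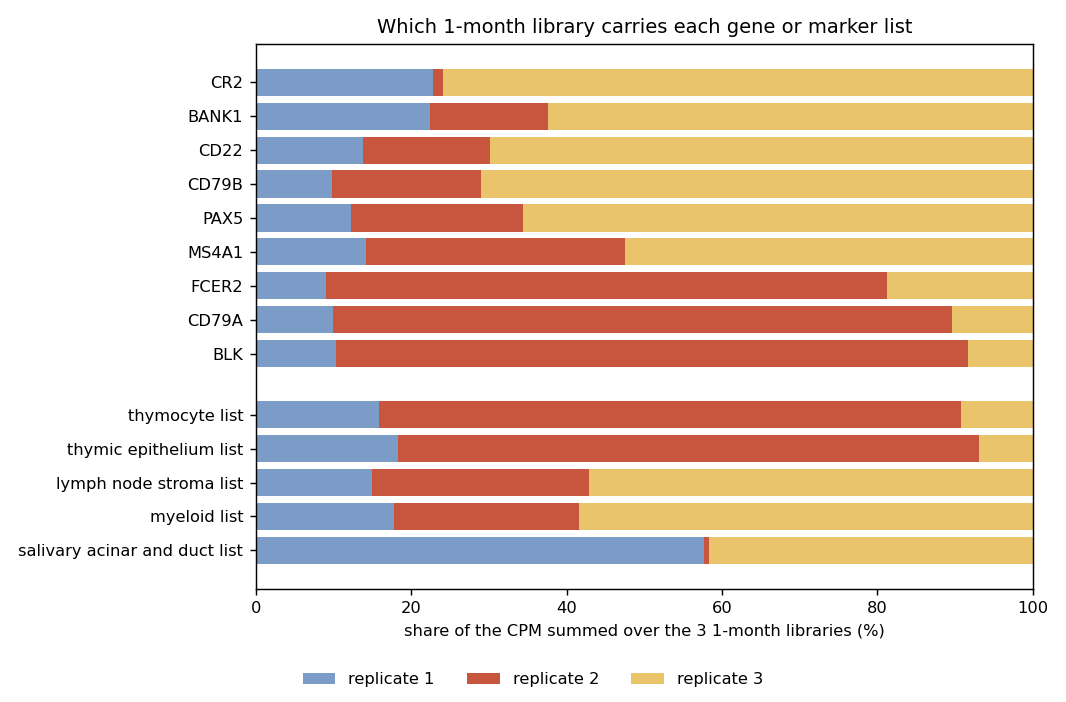
Share of each 1-month library (A1, A2 and A3 as replicates 1, 2 and 3) in the CPM summed over group A (horizontal axis, %), for the 9 genes above and for 5 marker lists below. Replicate 2 (A2) held 81.3% for BLK and 1.35% for CR2, and replicate 3 (A3) held 75.9% for CR2.

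Transcript usage could be followed for the genes with several transcripts, although the split of reads between overlapping transcripts is an estimate. For BLK, XM_018051835.1 held 86.3% of the counts in group A and was at 0 in all 6 older libraries, in which XM_018051836.1 held all 8.18 counts of group B and all 14.5 of group C. For CR2, XM_005690449.3 held 34.2% of the counts at 1 month, 0.0% at 12 months and 1.02% at 24 months. XM_013970056.2 was at 0 in group A and held 45.3% in group B and 0.569% in group C. Its counts in B1, B2 and B3 were 33.0, 0.0 and 44.1, so it was absent from B2. New transcripts held 44.5% of the BANK1 counts (TCONS_00020332), 30.2% of those of CD22 (TCONS_00052956 and TCONS_00052957), 10.1% of those of FCER2 (TCONS_00022732) and 2.40% of those of CR2 (TCONS_00047256). CD79A and MS4A1 had 1 transcript each, XM_005692572.3 and XM_005690341.3, and CD79B had 2, both in RefSeq.

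The wider B cell programme was read from 6 lists with 61 genes, of which 59 were in the table and 55 were tested. From 1 to 12 months 28 of the 55 fell and 0 rose by edgeR, and from 1 to 24 months 27 fell and 0 rose, against the 9.52% and 9.16% of all genes called lower. Of the genes called lower, 10 in each comparison had too few counts to be tested between groups B and C and so passed the filter on low counts through group A, which leaves 18 and 17 others, and the counts are a description. Leaving out the library labelled A2 gave 30 of 56 lower and 1 higher at 12 months, where 2.13% of all genes were called higher, and 29 of 56 lower and 0 higher at 24 months, where 4.38% were. Of the 59 genes, 29 were highest within group A in A2, 26 in A3 and 4 in A1. Between groups B and C 0 of 45 were called. Many of these genes are shared with T cells or myeloid cells and are not B cell markers in themselves.

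**Figure D5:**
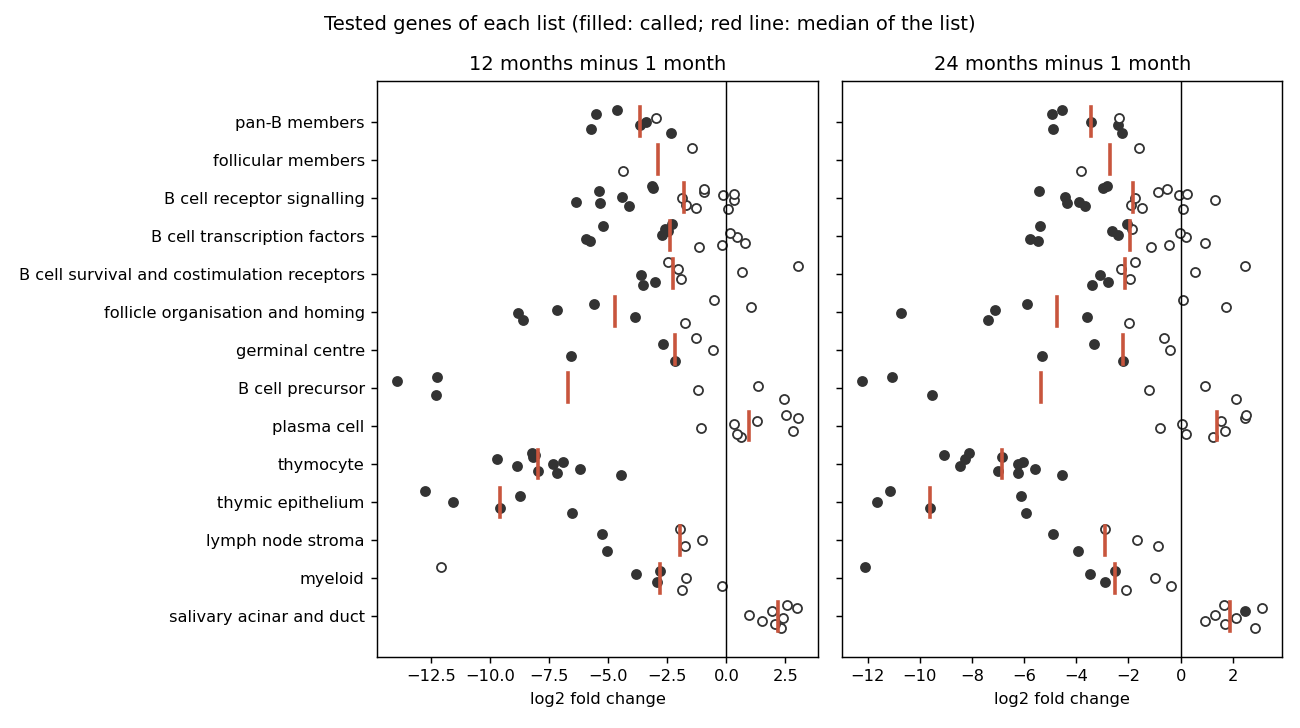
Fitted log2 fold change (horizontal axis) of every tested gene of the 14 lists from 1 to 12 months on the left and 1 to 24 months on the right; each point is 1 gene, filled points are called and the red line is the list's median. The 7 pan-B genes have medians of -3.66 and -3.42, and the thymocyte and thymic epithelium genes lie further below 0, with medians of -7.97 and -9.60 on the left, or -6.26 and -7.93 without 1-month replicate 2 (A2), whose fits are not drawn.

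Receptor signalling genes fell in 7 of 16 in each comparison with group A, with list medians of -1.80 at 12 months and -1.83 at 24 months, and without A2 in 8 and 9 of 16 with medians of -2.15 and -2.09. PRKCB, a protein kinase C that lymphocytes use to activate NF-kappaB, had a mean of 328 ± 160 CPM (SD, n = 3) in group A and 7.68 ± 1.25 in group B, a log2 fold change of -5.40 (edgeR, adjusted p = 0.00631), or -4.95 without A2. CD37, a tetraspanin of B cells and other leukocytes, was at 27.8, 283 and 42.45 CPM in A1 to A3 and at 2.04 to 3.55 in group B. Its log2 fold change was -5.37 with A2 (edgeR, adjusted p = 0.0196) and -3.62 without it (edgeR, adjusted p = 0.000783). FCRLA, an Fc receptor-like protein of B cells, had 2.92 ± 1.74 CPM in group A and 0.127 ± 0.135 in group B (edgeR, adjusted p = 0.0348, and 0.0268 without A2). CD72, a B cell inhibitory receptor, had 3.57 ± 2.60 CPM in group A and 0.0365 ± 0.0317 in group B (edgeR, adjusted p = 0.0122, and 0.00409 without A2). For both genes the group B mean lay below the level of 3 counts, and no fold is given.

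Transcription factor genes fell in 7 of 12 at 12 months and 6 of 12 at 24 months, with medians of -2.38 and -1.96, and without A2 in 6 and 5 with medians of -1.91 and -1.58. IKZF3 and IKZF1, which encode Ikaros family factors of B and T cells, fell by 5.95 (edgeR, adjusted p = 0.00834) and 5.77 (edgeR, adjusted p = 0.00893) from 1 to 12 months. SPIB, used by B cells and plasmacytoid dendritic cells, fell by 5.22 (edgeR, adjusted p = 0.00940), and IRF8 by 2.74 (edgeR, adjusted p = 0.0139). SPIB passed the filter on low counts through group A alone, and its mean in group B was 0.367 CPM. Without A2 the log2 fold changes of IKZF3, IKZF1, SPIB and IRF8 were -5.08, -4.80, -4.996 and -3.01, all called. EBF1, which acts with PAX5 in early B cells and is also made by stromal cells, was at 18.7, 3.46 and 29.5 CPM in A1 to A3 and 9.41 to 17.3 in the older libraries, with a log2 fold change of -0.17 (edgeR, adjusted p = 0.864), or -0.74 without A2 (edgeR, adjusted p = 0.0766). In A2, EBF1 was thus below every older library.

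Survival and costimulation receptor genes fell in 3 of 8 in each comparison, with medians of -2.25 and -2.12, and without A2 in 5 and 4 with medians of -2.39 and -2.26. The 3 were CIITA, the master regulator of MHC class II, CD40, the receptor for T cell help, and CD83, an activation marker, with log2 fold changes of -3.63, -3.54 and -3.02 from 1 to 12 months (edgeR, adjusted p = 0.0122, 0.0285 and 0.0180), and -2.92, -2.82 and -2.41 without A2, all still called. TNFRSF17, the survival receptor of plasma cells, ran the other way, at 1.95, 0.155 and 3.70 CPM in A1 to A3, 13.1 to 17.3 at 12 months and 6.87 to 11.8 at 24 months. Its log2 fold change from 1 to 12 months was 3.03 (edgeR, adjusted p = 0.0551), and 2.39 without the library labelled A2 (edgeR, adjusted p = 0.00363), when it was called.

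Genes of follicle organisation and homing fell in 5 of the 8 tested of 10 in each comparison, with a median of -4.73 at 12 months and -4.74 at 24 months, the second also with GPR183 at its bound. Without A2 they fell in 6 of 9 in each, with medians of -4.45 and -5.50. CCR7, which guides lymphocytes to the T cell zone, was at 21.1, 122 and 39.0 CPM in A1 to A3 and 0.145 ± 0.154 in group B, again below the level of 3 counts (edgeR, adjusted p = 0.00840, and 0.000659 without A2). LTB, a cytokine that builds lymphoid tissue, had a log2 fold change from 1 to 12 months of -7.16 (edgeR, adjusted p = 0.00824), or -6.03 without A2. LTB passed the filter on low counts through group A alone, and its mean in group B was 0.347 CPM. GPR183, a receptor that positions B cells in follicles, was at 3.52, 27.4 and 3.57 CPM in A1 to A3 and had no count in group C. Its mean in group A was at least 70.2-fold higher than 3 counts per library allow there, and that of A1 and A3 at least 21.7-fold. CXCL13, the chemokine that draws B cells into follicles, was at 1.38, 0.258 and 10.9 CPM in A1 to A3 and at most 0.558 in the older libraries, while its receptor CXCR5 was at 4.21, 15.7 and 8.84 CPM and at most 1.08. The ligand was therefore highest in A3, as CR2 was, and the receptor in A2.

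Germinal centre genes fell in 3 of the 5 tested of 7 in each comparison, with medians of -2.19 and -2.20, and without A2 in 2 with medians of -1.37 and -1.35. From 1 to 12 months the log2 fold change was -2.67 for MYBL1, a transcription factor of the Myb family (edgeR, adjusted p = 0.00948), or -2.65 without A2, and -2.19 for BCL6, the germinal centre repressor that other cells also use (edgeR, adjusted p = 0.0414). GCSAM, a germinal centre signalling protein, had 9.40 ± 7.38 CPM in group A and 0.0916 ± 0.0848 in group B (edgeR, adjusted p = 0.0121, and 0.00319 without A2). BCL6 was at -1.37 and no longer called when the library labelled A2 was left out, and S1PR2, a receptor that holds B cells in germinal centres, was at -1.27 with all 3 and was not called (edgeR, adjusted p = 0.0783), nor at -0.85 without A2. RGS13, a regulator of G protein signalling in germinal centre B cells, was at 0.0, 0.155 and 0.439 CPM in A1 to A3 and at 0 in all 6 older libraries, too low to be tested.

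Of the B cell precursor list 6 of 8 genes were in the table. RAG1, RAG2 and DNTT, which recombine antigen receptor genes in both B and T cell precursors, fell in both comparisons, with A2 and without it. The list medians were -6.72 and -5.37 with A2 and -6.74 and -5.40 without. They describe no single gene, since from 1 to 12 months the median lay between RAG2 (-12.2) and ERG (-1.19, not called). MME was at 1.34 and not called. In group B the means of RAG1, RAG2 and DNTT lay below the level of 3 counts, so their fitted sizes are no bound. RAG1 was at 1516, 4183 and 644 CPM in A1 to A3 and at most 0.818 in the older libraries, RAG2 at 247, 284 and 112 CPM and at most 0.273, and DNTT at 162, 156 and 66.3 CPM and at most 0.205. All 3 were lowest within group A in A3, the library with the highest MS4A1, CD22, PAX5, BANK1, CD79B and CR2. CD24, a surface protein of B cell precursors that epithelium also makes, was at 205, 0.929 and 131 CPM in A1 to A3 and 231 to 751 in the older libraries, and was not called (log2 fold change from 1 to 12 months 2.46, edgeR, adjusted p = 0.220; 1.79 and 0.00542 without A2). The thymocyte genes fell in 11 of 11 tested in both comparisons, with A2 and without it, and their summed level was lowest within group A in A3 as well.

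As a list, plasma cell genes did not follow the B cell genes, though single members differed. Of the 8 listed, of which TNFRSF17 and IRF4 are also in the lists above, 0 were called by edgeR in either comparison with group A, with medians of 0.96 and 1.40 (0.62 and 1.02 without A2), and their sum was 687, 139 and 1279 CPM in A1 to A3 against 3691 to 3847 at 12 months and 1969 to 2788 at 24 months. JCHAIN, which joins secreted immunoglobulin A, was at 346, 3.61 and 837 CPM in A1 to A3, 2802, 2771 and 2436 in B1 to B3, and 1804, 748 and 970 in C1 to C3. Its log2 fold change from 1 to 12 months was 2.83 ± 1.40 (edgeR, adjusted p = 0.181), and 2.16 ± 0.40 without the library labelled A2 (edgeR, adjusted p = 0.00820). JCHAIN and TNFRSF17 were the 2 plasma cell genes called higher in group B without A2, and none was called higher in group C. With A2, MZB1 alone of the 8 had negative log2 fold changes, -1.06 at 12 months and -0.77 at 24 months. Without A2, PRDM1 was negative too, at -0.28 and -0.52, and neither gene was called. JCHAIN made up most of the list's sum at 12 months.

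The genes whose levels over the 9 libraries were most like those of MS4A1 and of CR2 were different. Among 14370 genes with at least 1 CPM in 3 or more libraries, those with the highest Pearson r to MS4A1 on log2(CPM + 1) were NFE2 (0.997), FLT3 (0.994), ART5 (0.994), LOC102177263 (0.993) and SP110 (0.993). Those most like CR2 were HAVCR1 (0.984), SBSPON (0.9798), CLEC4G (0.973), COL6A6 (0.966) and TNFRSF11A (0.962). CLEC4G was at 24.95, 1.24 and 132 CPM in A1 to A3 and HAVCR1 at 39.8, 1.70 and 145, so both were low in A2, and neither passed 1.28 CPM in an older library. Among the 9 genes themselves r was 0.985 between MS4A1 and PAX5, 0.969 between CD79A and BLK, and -0.037 between CR2 and FCER2. These values describe 9 libraries of 3 ages, in which the contrast of group A with the rest and the library labelled A2 weigh on every pair.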

How the data were processed

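Total RNA of submandibular gland tissue from 9 goats was sequenced, with 1 library per goat and 3 libraries per age. Reads were filtered, cleared of ribosomal RNA with Bowtie2 2.2.8, aligned with TopHat2 2.1.1 and assembled with Cufflinks, per the submitters' processing notes and the study's methods. The genome build and the RSEM version are not given in the sources used here. The authors estimated the deposited values, expected counts of each transcript, with RSEM and scaled them to neither depth nor length. Of 52739 transcripts 10053 are new assemblies, 432 of them without a symbol, and 4 symbols had turned into dates. Of 42686 known identifiers 42652 matched the RefSeq gene table of assembly GCF_001704415.2, which was used for names only. VPREB1, IGLL1, CD1A and CD163 were not found under those symbols.

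Expected counts were summed per gene and rounded to whole numbers. Each pair of ages was fitted on all genes with edgeR 4.0.16 in R 4.3.3 (filterByExpr, TMM, glmQLFit, glmQLFTest, Benjamini-Hochberg), and calls needed an adjusted p below 0.05 with a log2 fold change beyond 2 in either direction. The study's further rule on FPKM was not applied, since the table holds none. DESeq2 1.42.0 served as an alternative, and binomial intervals came from scipy 1.17.1. The fits were tested on simulated data. The 9 genes and all lists were chosen with earlier results of these data known. Named besides them are the 4 genes of each B cell list with the largest fold change from 1 to 12 months, any that moved the other way, and the 5 genes most like MS4A1 and CR2. Some listed genes are counted but not reported here by name. EBF1, ERG, MME, CXCL13, CXCR5, RGS13 and LOC102174108 were named after their values were seen. So were JCHAIN, MZB1, PRDM1, CCL19, PROX1 and the marker genes MUC19, AQP5, FOXN1, AIRE, PSMB11 and MARCO.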

Additional observations from a re-analysis of the deposited data

How the results depend on the processing

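From 1 to 12 months the number of the 9 genes called was 6, and it was 3 with RefSeq transcripts only, where PAX5 could not be tested. Leaving out 1 library gave 0 to 7 (0 without B1, B2 or B3), and for the genes of the 6 B cell lists 0 to 31 (0, 3 and 5 without B1, B2 and B3). From 1 to 24 months the same ranges were 0 to 5 (1, 0 and 0 without C1, C2 and C3) and 10 to 29 (14, 12 and 10). Over all genes 0, 70 and 125 were called without B1, B2 and B3, and 1373, 553 and 309 without C1, C2 and C3. The losses ran through the whole table, and from 1 to 24 months they were heavier among the 9 genes. With RefSeq transcripts only 1378 of all genes were called from 1 to 12 months. The cause of these losses was not tested. Other normalizations, tests, filters and thresholds gave 6 to 8 of the 9 genes in both comparisons, RefSeq transcripts only gave 4 from 1 to 24 months, and no fold change of the 9 from group A changed sign. The share of all genes called under those other settings is not given here, so the range of 6 to 8 has no background beside it. The median of all genes was -0.51 and -0.71 with library totals alone.

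With the replicate number as a block, 1 of the 9 genes (CD22) was called from 1 to 12 months and 4 from 1 to 24 months, and 20 and 25 genes of the B cell lists. Over all genes 895 were called with the block from 1 to 12 months and 1738 without, 1802 and 2006 from 1 to 24 months, and 7 and 0 from 12 to 24 months. The numbers do not pair the samples: same-numbered libraries of groups A and B had correlations of deviations from -0.0967 to -0.0959, those of A and C from -0.186 to 0.351, and those of B and C from -0.105 to -0.0155. The block turned the fold change of PAX5 from 12 to 24 months to -0.18.

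From 12 to 24 months, where 0 of the 9 genes were called under any setting, other signs changed too. PAX5 (0.067) went to -0.013 with upper-quartile normalization and -0.068 with library totals, BANK1 (0.10) to -0.13 with library totals and -0.15 with RefSeq transcripts only, and FCER2 (-0.16) to 0.22 with the latter. Leaving out 1 library gave -1.02 to 0.49 for PAX5, -0.20 to 0.26 for BANK1, -0.52 to 0.36 for CD79A, -0.19 to 1.41 for CD79B and -0.52 to 0.29 for FCER2. All genes called ran to 171 without C1, 13 with DESeq2 and 16 with the exact test.

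The follicular share in A1, A2 and A3 (47.8%, 19.7% and 53.5%) was 54.1% in A1 and 61.7% in A3 with RefSeq transcripts only, and 60.3%, 22.3% and 75.5% with MS4A1, CD79A and CD79B alone beside CR2 and FCER2. With CR2 alone it was 43.3%, 0.866% and 50.5%, and with FCER2 alone 13.3% in A1, 19.1% in A2 and 11.3% in A3, so the order of the libraries turned. The mean log2 CPM of CR2 and FCER2 exceeded that of the pan-B genes by 1.94, 0.15 and 1.80. CD79A, BLK, CD79B and CR2 changed their calls without A2, as given above.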
